A study of Mus musculus with 3 samples.

Results

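In the hearts of newborn mice, a minority of the cardiomyocyte nuclei sampled with the aortic valve carried RNA of Erc2, Kcnh7, Lrrc4c and Lrtm1, genes better known from neurons, and more of it than of Fgf13 and Fhl2, which outnumbered these genes in most cardiomyocyte nuclei of the tissue. These nuclei were taken by a rule on UMI counts and not by cluster membership. Erc2, Kcnh7, Lrrc4c and Lrtm1 had, however, been picked as markers from a clustering of the same data, so the rule is not independent of that clustering. Nuclei were kept with at least 1000 UMIs (unique molecular identifiers, each 1 captured RNA molecule) and with no more than 5% of them mitochondrial (13 genes). A kept nucleus passed a cardiomyocyte gate where Ryr2, Ttn, Myh6, Tnnt2 and Actn2 together made up at least 1% of its UMIs. Inside the gate, a member had at least 3 UMIs of Erc2, Kcnh7, Lrrc4c and Lrtm1 together, and more of these than of Fgf13 and Fhl2 together. The rule found 320 members among 3062 gated nuclei, 14073 kept nuclei and 21140 deposited nuclei. The other 2742 gated nuclei were the comparison, and 2538 of them had at least 3 UMIs of Fgf13 and Fhl2 and more of these than of the marker genes.

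The tissue was the aortic valve structure of pups at postnatal day 1, flash frozen and pooled as 22 to 24 aortic roots per replicate. The strain label of all 3 pools gave the allele Scx<tm1.1(EGFP)Skom on B6.Cg (stock RBRC11098), so every nucleus came from a line with an EGFP allele at Scx, a tendon transcription factor, and no wild-type or treated group was compared. Gene expression was read from single nuclei with 10x Genomics chemistry. Pools 1, 2 and 3 held 49918251, 25341316 and 21254247 UMIs. The deposited tables hold barcodes of pooled pups, so the replicate is the pool and the spread given below is that over 3 pools.

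Erc2 (ERC2, also called CAST) is a scaffold of the presynaptic active zone, where synaptic vesicles are released. Kcnh7 encodes an ether-a-go-go-related (ERG) potassium channel, Lrrc4c encodes NGL-1, a leucine-rich repeat ligand of netrin-G1, and Lrtm1 encodes a transmembrane protein with leucine-rich repeats. In the heart, working chamber muscle is known for fast conduction through connexin 43 (Gja1), whereas nodal and outflow tract muscle are known for low levels of it and for the transcription factor Isl1 in parts of them. Fgf13 encodes a fibroblast growth factor homologous factor that binds sodium channels, and Fhl2 encodes a LIM domain protein of the sarcomere.

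Members made up 11.9% of the gated nuclei in pool 1 (154 of 1292, Wilson 95% interval 10.3% to 13.8%), 8.38% in pool 2 (66 of 788, 6.64% to 10.5%) and 10.2% in pool 3 (100 of 982, 8.44% to 12.2%). The intervals cover counting error only and overlap between the pools. The mean share was 10.2% ± 1.77 of the gated nuclei and 2.29% ± 0.334 of all kept nuclei (SD, n = 3 pools). Members were about as deep as the nuclei they were compared with, with median UMI totals of 5865.5, 6228.5 and 4256 against 5870.5, 6904 and 5122.5 in pools 1, 2 and 3. Among nuclei whose sex could be called from Xist and Y-linked genes, 37.4%, 42.4% and 43.2% of the members were female, against 35.4%, 42.5% and 48.7% of the other gated nuclei, so the members came from pups of both sexes in every pool. Between pools, 99, 59 and 44 barcodes were shared, and no barcode was a member in 2 pools.

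The sums that chose the members are described without a test. The median member had 11, 13.5 and 13 marker UMIs in the 3 pools, with highest values of 135, 190 and 176. Just inside the threshold, 20 members had exactly 3 marker UMIs, and 38 had 4 or 5. Just outside it, 13 gated nuclei had 2 marker UMIs and more of these than of Fgf13 and Fhl2. A further 473 gated nuclei had 3 or more marker UMIs but as many or more of Fgf13 and Fhl2, and 1500 had no marker UMI. At the gate, 44 members had between 1% and 1.5% of their UMIs from the 5 gate genes.

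**Figure D1:**
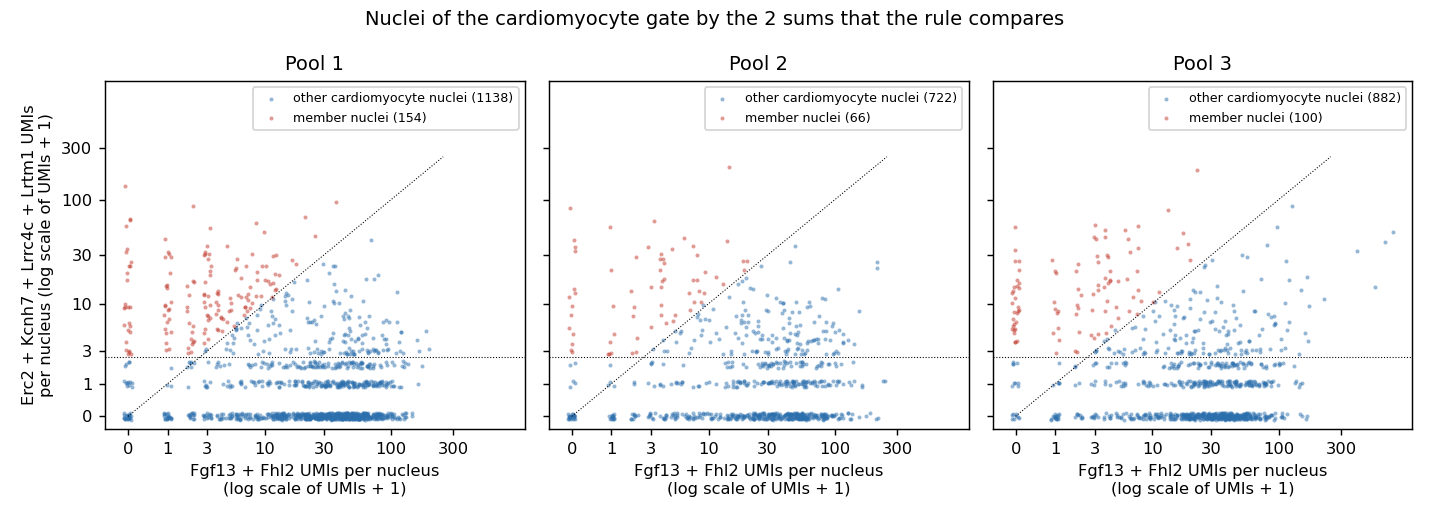
Each point is 1 nucleus of the cardiomyocyte gate in pool 1, 2 or 3, with its Fgf13 + Fhl2 UMIs on the x axis and its summed marker UMIs on the y axis (both log scales of UMIs + 1, with a small random offset). The dotted lines mark the minimum of 3 marker UMIs and equal sums; the 320 members (red) lie above both, and 473 other nuclei (blue) have 3 or more marker UMIs but lie on or below the diagonal.

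The levels of muscle transcripts were read first. Those of the 5 gate genes are a description, since the gate fixed their difference from nuclei outside it. Levels are given as CPM, the UMIs of a gene per 1000000 UMIs summed over all nuclei of a class in a pool. Ttn, the giant spring protein of the sarcomere, was at 15223, 14936 and 13838 CPM in the members and 15291, 13841 and 11460 CPM in the other gated nuclei. Outside the gate it was at 226.6 to 706 CPM. Ryr2, the calcium release channel of the sarcoplasmic reticulum, was the gate gene that differed, at 3987 ± 222 CPM in the members and 11194 ± 808 CPM in the others (SD, n = 3). The 3 other gate genes, Myh6, Tnnt2 and Actn2, lay between 0.11 and 0.32 higher on the log2 scale in the mean over pools, and the small differences of Ttn and Tnnt2 changed sign against nuclei matched on UMI total. Of 20 further sarcomere genes in a list, 19 passed the filter on low values defined below and none was called higher or lower, where 0.616% of all counted genes were called higher and 0.694% lower. Nebl, the nebulette of the Z-disc, was at 748, 925 and 832 CPM in members, 672, 727 and 619 CPM in the others and 32.5 to 72.4 CPM outside the gate.

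The 4 marker genes were present in different combinations. Erc2 was detected in 264 of the 320 members, Lrrc4c in 183, Lrtm1 in 183 and Kcnh7 in 108. UMIs of 1 marker gene only were found in 60 members, of 2 in 129, of 3 in 104 and of all 4 in 27. By construction their levels were higher in the members: Erc2 was at 869 ± 110 CPM against 76.0 ± 1.12, Kcnh7 at 878 ± 304 against 46.9 ± 12.3, Lrrc4c at 1002 ± 279 against 40.3 ± 9.50 and Lrtm1 at 258 ± 48.0 against 43.0 ± 1.82 (SD, n = 3 pools). Kcnh7 was the most uneven of them, with 41.7% of its member UMIs in 10 nuclei.

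Each marker was next read in nuclei chosen without it, by the same rule on the other 3 markers. Every such nucleus was itself a member, so these values describe how often the markers occurred together and are not an independent sample. Erc2 was at 441, 561 and 679 CPM in the 214 nuclei chosen by Kcnh7, Lrrc4c and Lrtm1, against 149, 103 and 107 CPM in the remaining gated nuclei. The log2 difference, here and below log2 of (member CPM + 5)/(other CPM + 5), was 2.18 ± 0.57 (SD, n = 3). The value was 3.03 ± 0.79 for Kcnh7 (275 nuclei), 2.83 ± 0.45 for Lrrc4c (245 nuclei) and 1.84 ± 0.41 for Lrtm1 (275 nuclei). Each of the 4 genes was thus higher in every pool where the other 3 chose the nuclei.

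Kcnh7 and Lrrc4c divided the members further. With at least 3 UMIs of a gene taken as present, a division chosen after the values were seen, 115 members had Lrrc4c only, 50 had Kcnh7 only, 33 had both and 122 had neither. Of these 4 sets, the members with neither had the highest Erc2, at 1326 ± 379 CPM against means of 533 to 695 CPM in the other sets, which is in part what the marker minimum requires. Rspo3, which the rule did not use, was at 187 ± 6.94 CPM in the Kcnh7-only nuclei and at 526 ± 95.7 and 532 ± 159 CPM in the nuclei with neither and with Lrrc4c only, ranges over pools that did not overlap (179 to 193 CPM against 433 to 624 and 426 to 714 CPM). The 33 nuclei with both had 355 ± 191 CPM and overlapped with the others. Ttn was alike across the 4 sets, between 13891 and 14838 CPM in the mean, as was Ryr2, between 3587 and 4134 CPM.

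To describe what else set the members apart, every gene was compared with the other gated nuclei of the same pool. A gene was counted where it reached 10 CPM over members and others together in every pool, which 8928 genes did after the 11 genes of the rule and the mitochondrial genes were left out. It was called where it differed by at least 2-fold in the same direction in each of the 3 pools. By that rule 55 genes were higher in the members (0.616% of the genes counted) and 62 were lower (0.694%). Part of these calls was lost under other settings. Against other gated nuclei matched on UMI total, 36 of the 55 and 41 of the 62 were called again, with at most 1% mitochondrial UMIs 51 and 49, and with the rule on 1 random part of each nucleus's UMIs and the levels from the rest 38 and 37. Of the 55 higher genes, 7 were under 10 CPM in the other gated nuclei of at least 1 pool and so passed the filter there only through the members, where they had to differ. Isl1 was so in every pool, and Oprd1, Ptpro, Plppr5, D030025E07Rik and Gm52106 in 1 or 2. Of the 62 lower genes, 25 were under 10 CPM in the members of at least 1 pool, and 14 in every pool. Those genes passed the filter there only through the other gated nuclei. No p-value is given, because the members were chosen on RNA of the same nuclei, and genes that vary with the markers had to differ. The median log2 difference over all counted genes was -0.07. At these shares a list of 20 genes or fewer is expected to hold less than 1 call, so nothing is read from a list with none.

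The counts differed with the nuclei that the members were set against. Against the 204 gated nuclei that had neither 3 marker UMIs in excess nor 3 UMIs of Fgf13 and Fhl2 in excess, 20 genes were called higher, of which 6 were among the 55, and 276 were called lower, of which 3 were among the 62. Those 204 nuclei had intermediate levels of some genes named below as higher in the members. Gria1, for instance, was at a mean of 944 CPM in the members, 423 CPM in these nuclei and 98.3 CPM in all 2742 gated nuclei that were not members. They also had 1326 CPM of the atrial light chain Myl7, against 143 CPM in the 2742. Several genes named below as lowest in the members were low in the 204 as well. Against the 204 the log2 difference was -0.04 for Cdh20, -0.11 for A630039O03Rik, -0.21 for Dcc and -0.28 for Gm13481. It was -0.41 for Ntn1, -0.63 for Hey2, -1.07 for Plekhh1 and -1.36 for Gja1, and -0.16 for the gate gene Ryr2. Against these 204, the difference changed sign for 19 of 75 genes followed through every alternative, among them the called genes Ripor2, Kcnip2 and Cacna1h, the rule's genes Fgf13, Myh6 and Tnnt2, and the uncalled genes Myl7, Nppa, Myh7, Tbx2, Hand2, Fgf12, Cacna1c and Atp2a2. At a gate of 5% in place of 1%, 5 members were left and 27 of the 75 changed sign, among them Isl1, Snap25, Cacna1d, Rims1, Wnt5a, Gjc1, Bmp4 and Pclo.

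**Figure D2:**
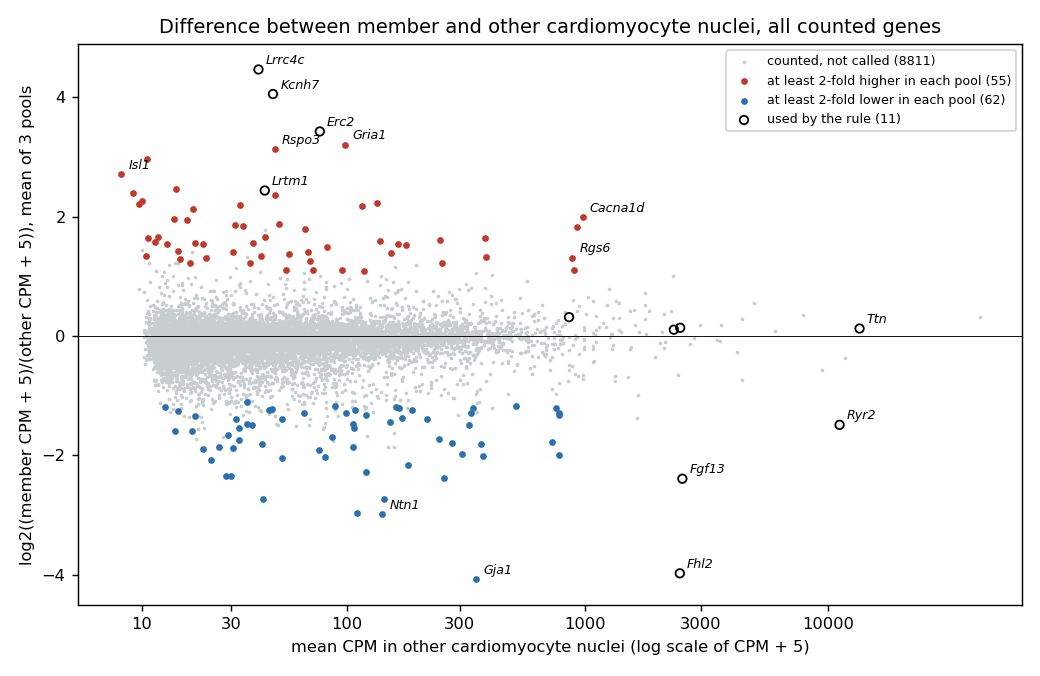
Each point is 1 gene, with its mean CPM in the other cardiomyocyte nuclei on the x axis (log scale of CPM + 5) and the mean log2 difference over 3 pools on the y axis. Among 8928 counted genes, 55 were at least 2-fold higher in each pool (red) and 62 at least 2-fold lower (blue); open circles are the 11 genes that the rule used.

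Gria1, Snap25 and Oprd1 were among the 15 genes with the highest differences. Gria1, a subunit of AMPA-type glutamate receptors, was at 836, 1136 and 859 CPM in the members and 102, 77.7 and 115 CPM in the others, a log2 difference of 3.20 ± 0.51 (SD, n = 3). Snap25, a SNARE protein of vesicle fusion, was at 116, 125 and 88.2 CPM against 14.01, 18.6 and 14.3 CPM, and at 0.60 to 3.36 CPM outside the gate. Oprd1, the delta opioid receptor, was at 51.8, 69.7 and 65.2 CPM against 8.41, 9.56 and 10.6 CPM. In each of these genes every pool of members lay above every pool of the other gated nuclei and of the nuclei outside the gate. Ntm (neurotrimin, a cell adhesion protein), Plppr5 and Nexmif followed, with log2 differences of 2.18 ± 0.53, 2.26 ± 0.28 and 2.13 ± 0.35.

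Rspo3, Isl1 and Sema3a were also among the 15. Rspo3, a secreted R-spondin that strengthens Wnt signalling, was at 434, 420 and 522 CPM in the members against 45.8, 45.2 and 52.4 CPM in the others, with a log2 difference of 3.13 ± 0.06. Isl1, a transcription factor of second heart field progenitors and of the sinoatrial node, was at 76.8, 73.8 and 74.8 CPM against 7.55, 6.32 and 8.08 CPM. Its log2 difference was 2.70 ± 0.10, and its level outside the gate was 16.04 to 22.1 CPM. Sema3a, a secreted guidance cue that repels axons, was at 223, 301 and 288 CPM against 47.2, 48.7 and 48.5 CPM. The receptor phosphatase Ptpro, the extracellular matrix protein Fras1, Mfsd6 and the nucleotide synthesis enzyme Prps2 had log2 differences of 2.39 ± 0.64, 2.22 ± 0.40, 2.20 ± 0.19 and 1.96 ± 0.31. The lncRNA D030025E07Rik had 2.97 ± 0.29, but 58.1% of its member UMIs came from 10 nuclei.

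Gja1, Hey2 and Ntn1 were among the 10 genes with the lowest differences. Gja1, which encodes connexin 43, was at 23.1, 20.5 and 7.67 CPM in the members and 354, 415 and 283 CPM in the others, with a log2 difference of -4.07 ± 0.42. Hey2, a transcriptional repressor of compact ventricular muscle, was at 12.95, 14.4 and 26.9 CPM against 142, 159 and 129 CPM. In both genes the members lay below every pool of the other gated nuclei, and they also lay below every pool of the nuclei outside the gate (47.3 to 53.6 and 81.2 to 86.3 CPM). Ntn1, the guidance cue netrin-1, was at 7.40, 22.6 and 13.4 CPM against 126, 145 and 153 CPM. Plekhh1, Ripor2, Dcc, A630039O03Rik, Cdh20 and Gm13481 were also among the 10 lowest, with log2 differences from -2.73 to -2.16. Of these, Plekhh1, Dcc and A630039O03Rik rested on 4, 3 and 4 member UMIs in all, so that the pseudocount of 5 CPM set their size.

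**Figure D3:**
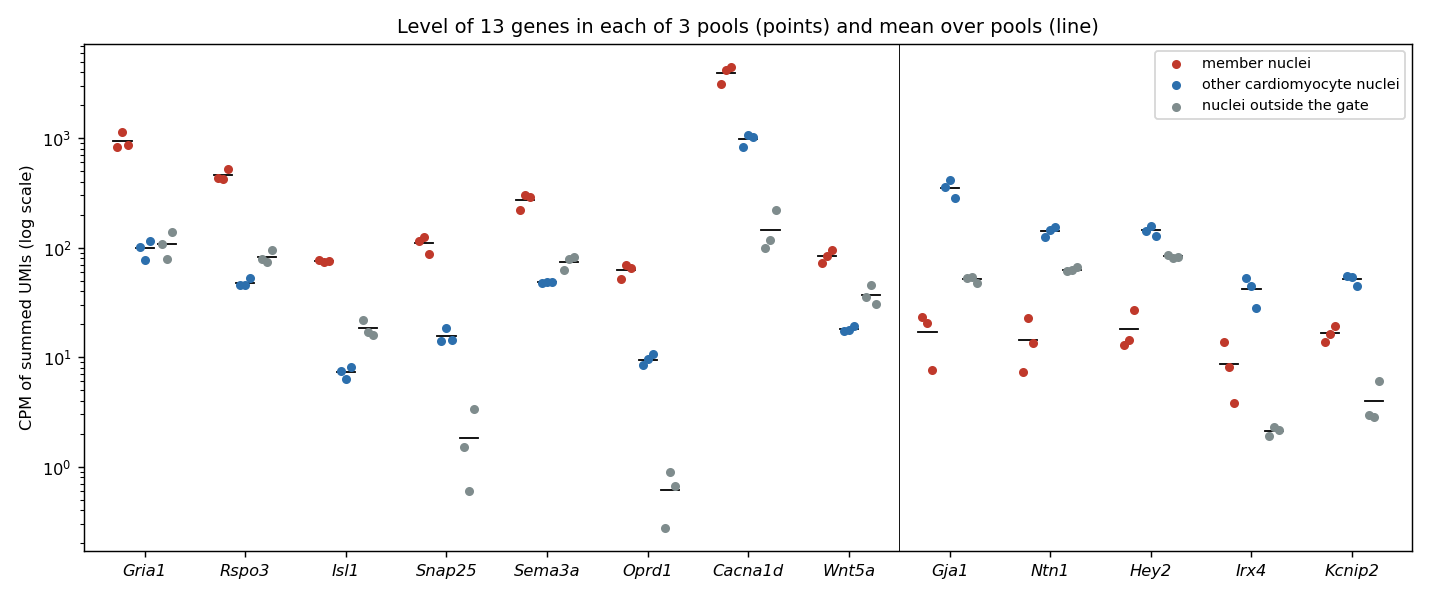
Summed CPM (log scale) of 13 genes in members (red), other cardiomyocyte nuclei (blue) and kept nuclei outside the gate (grey), with 1 point per pool and a line at the mean of 3 pools. For the 8 genes to the left of the vertical line every red point lies above the blue ones, as for Gria1 (836 to 1136 against 77.7 to 115 CPM), and for the 5 to the right every red point lies below, as for Gja1 (7.67 to 23.1 against 283 to 415 CPM).

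Read as shares of nuclei, the differences held at equal depth. Each nucleus was thinned at random to 1000 UMIs, and nuclei outside the gate gave the share that free RNA and other cell types could leave. Gria1 had a UMI in 45.8% ± 3.63 of the members, 6.70% ± 0.40 of the other gated nuclei and 8.11% ± 1.46 of the nuclei outside the gate (SD, n = 3 pools; 77.5%, 20.1% and 18.2% before thinning). For Rspo3 the shares were 20.2%, 2.92% and 5.62%, for Sema3a 19.1%, 3.78% and 3.83%, and for Snap25 9.51%, 1.42% and 0.091%. Isl1 had a UMI in 7.96% ± 1.06 of the members, 0.717% ± 0.291 of the other gated nuclei and 1.73% ± 0.097 of the nuclei outside the gate. In the opposite direction, Gja1 had a UMI in 2.06% ± 2.16 of the members and 27.1% ± 1.33 of the other gated nuclei, with 3.53% ± 0.640 outside the gate. The Gja1 and Hey2 (0.433% against 12.6%) shares of the members came from 5 and 2 nuclei in all. The mean Gja1 and Hey2 shares did not exceed those outside the gate. Before thinning, 12.5% of the nuclei outside the gate had a Gja1 UMI and 23.9% a Hey2 UMI, which may include cells that express them. Whether the members' UMIs were background was not tested. EGFP had a UMI in 0.505% of the members and 0.967% of the nuclei outside the gate.

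**Figure D4:**
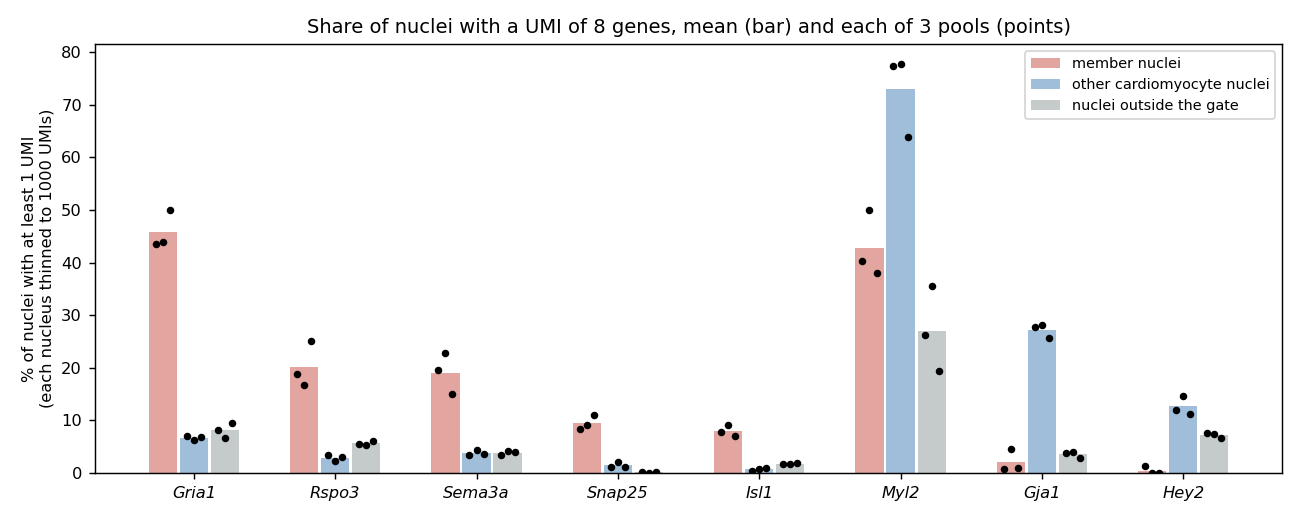
Percent of nuclei with at least 1 UMI of 8 genes after each nucleus was thinned to 1000 UMIs, in members (red), other cardiomyocyte nuclei (blue) and nuclei outside the gate (grey); bars are means and points the 3 pools. The 5 genes on the left are higher in members in every pool (Gria1 45.8% against 6.70% in the mean), and the 3 on the right are lower (Gja1 2.06% against 27.1%).

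Chamber genes did not move as a block. Of 10 ventricular genes 8 passed the filter, and 3 were called lower and none higher: Hey2, the ventricular transcription factor Irx4 (13.9, 8.20 and 3.84 CPM against 52.4, 44.9 and 28.0) and Kcnip2, a subunit of the transient outward potassium channel (13.9, 16.4 and 19.2 CPM against 55.6, 54.3 and 44.3). Irx4 was under 10 CPM in the members of pools 2 and 3, so it passed the filter there only through the others. The ventricular light chain Myl2 was at 558, 1056 and 387 CPM against 1747, 1960 and 1198 CPM, under 2-fold in pool 2 and so not called. The list's median log2 difference was -0.81, beside -0.07 for all counted genes. The ventricular genes Myl3, Myh7, Pln and Kcnj2 had differences between -0.25 and 0.75 and were not called.

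Of 15 atrial genes 10 passed and none was called in either direction (median 0.24). Myl7, the atrial light chain, was at 632.5, 232 and 51.8 CPM in the members and 168, 173 and 88.9 CPM in the others, so that the pools differed in sign. The UMIs were concentrated in few nuclei: 82.8% of the Myl7 UMIs and 91.3% of the UMIs of Nppa, the atrial natriuretic peptide, were in 10 members each. Without the top nucleus of each pool, an alternative added after the values were seen, the log2 difference moved from 0.52 to -0.19 for Myl7 and from 0.90 to -1.26 for Nppa. The median member had 3 to 4 UMIs over the 15 atrial genes, and the median of the other gated nuclei was 6 to 8. Bmp10, a growth factor of the atria, had 1 UMI in all members.

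Among 21 conduction system genes, 10 passed the filter, and 3 were called higher and none lower. Beside Isl1, which passed only through the members, these were Rgs6, a regulator of G protein signalling that shortens muscarinic responses (2080, 2307 and 2175 CPM against 937, 937 and 766), and Cacna1h, a T-type calcium channel subunit (63.8, 51.3 and 36.4 CPM against 22.1, 19.0 and 14.6). The other genes of the list were not called, among them Hcn4 and Shox2, which were too low to be called. Cacna1d, also known from pacemaker muscle, is not in this list and is read below. Hcn4, the pacemaker channel, was at 8.32, 8.20 and 7.67 CPM in the members and 10.1, 8.54 and 2.92 CPM in the others, under the filter. Shox2, a sinoatrial transcription factor, had 1 UMI in all members. Tbx3, a repressor that defines nodal muscle, had a log2 difference of -0.45 ± 0.28, and Cacna1g, the other T-type channel measured, one of -1.20 ± 0.34 that was not called. Gjc1, connexin 45 of slow-conducting muscle, was at 339, 365 and 330 CPM against 181, 183 and 181 CPM, higher in every pool but just short of 2-fold (0.90 ± 0.06). The median of the 10 was -0.40, below that of all counted genes.

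Of 10 outflow tract genes 6 passed, 1 (Rspo3) was called higher and none lower, with a median of 0.65. Bmp4, a growth factor of outflow tract muscle, was at 55.5, 100.5 and 48.0 CPM in the members and 21.7, 18.6 and 28.7 CPM in the others, and at 96.1 to 109 CPM outside the gate. It was higher in every pool and missed 2-fold in pool 3 (1.33 ± 0.77). Tbx2, Sema3c and Hand2 had log2 differences of 0.82 ± 0.49, 0.48 ± 0.72 and 0.32 ± 0.30, of which Sema3c rested on pool 2, where it was at 123 CPM. Without the top nucleus of each pool, Sema3c had -0.31. Mef2c, a muscle transcription factor of the second heart field, did not differ (0.09 ± 0.02).

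Ion channels were described by family. Cacna1d, the L-type calcium channel Cav1.3 known from pacemaker and atrial muscle, was at 3096, 4185 and 4457 CPM in the members against 834, 1068 and 1021 CPM in the others, with a log2 difference of 1.99 ± 0.12. Thinned to 1000 UMIs, 83.5% ± 6.37 of the members had a Cacna1d UMI, against 42.6% ± 3.22 of the other gated nuclei. It was the only one of the 14 counted calcium handling genes that was called. Like the rule's markers, Cacna1d was picked as a marker from a clustering of these nuclei. Its difference is therefore a description, although Cacna1d is counted among the genes called higher. Cacna1c, the L-type channel Cav1.2 of working muscle, was at 6434 ± 701 CPM against 9498 ± 541 CPM, and Atp2a2, the calcium pump of the sarcoplasmic reticulum, was at 1993 ± 171 against 2128 ± 223 CPM. Of the fibroblast growth factor homologous factors outside the rule, Fgf14 was called higher (536, 962 and 878 CPM against 260, 235 and 251). Fgf12 was at 433, 96.4 and 88.2 CPM against 40.9, 57.2 and 30.8 CPM, but 97.1% of its member UMIs were in 10 nuclei, and the difference was -0.02 without the top nucleus of each pool. The 9 counted potassium channel genes held no call, which is at the background share. The other ERG genes did not accompany Kcnh7: Kcnh2 was at 40.1 ± 6.34 against 38.7 ± 10.1 CPM, and Kcnh6 had 3 UMIs in all members.

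The presynaptic and adhesion partners of the markers were read next. Of 10 active zone genes 7 passed the filter, and Rims1, a scaffold that binds ERC proteins, was the only one called, at 404, 509 and 573 CPM against 143, 176 and 178 CPM. Pclo, the active zone protein piccolo, had 0.95 ± 0.57, and Erc1, the paralog of Erc2, was at 466 ± 41.0 against 475 ± 23.9 CPM. Of 15 genes of leucine-rich repeat and netrin-G adhesion 6 passed and none was called, with Ntng1, the netrin-G1 that binds NGL-1, at 6 UMIs in all members. Of 12 neuronal genes 2 passed the filter, Snap25, which was called higher, and Syt1, the vesicle calcium sensor synaptotagmin-1, which had -1.14 ± 0.77 and was not called. The neuronal genes together summed to 121 to 152 CPM in the members, 48.3 to 52.5 CPM in the others and 72.3 to 88.0 CPM outside the gate. Snap25 made this difference: without it the other 11 genes summed to 36.1, 20.5 and 32.6 CPM in the members and 38.5, 32.1 and 34.0 CPM in the others. Rbfox3, Th, Prph, Nefl and Nefm, which define neurons or some of their types, had no UMI in any of the 320 members, which allows up to 3 UMIs each among the 1081347, 487684 and 521392 member UMIs of the 3 pools.

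**Figure D5:**
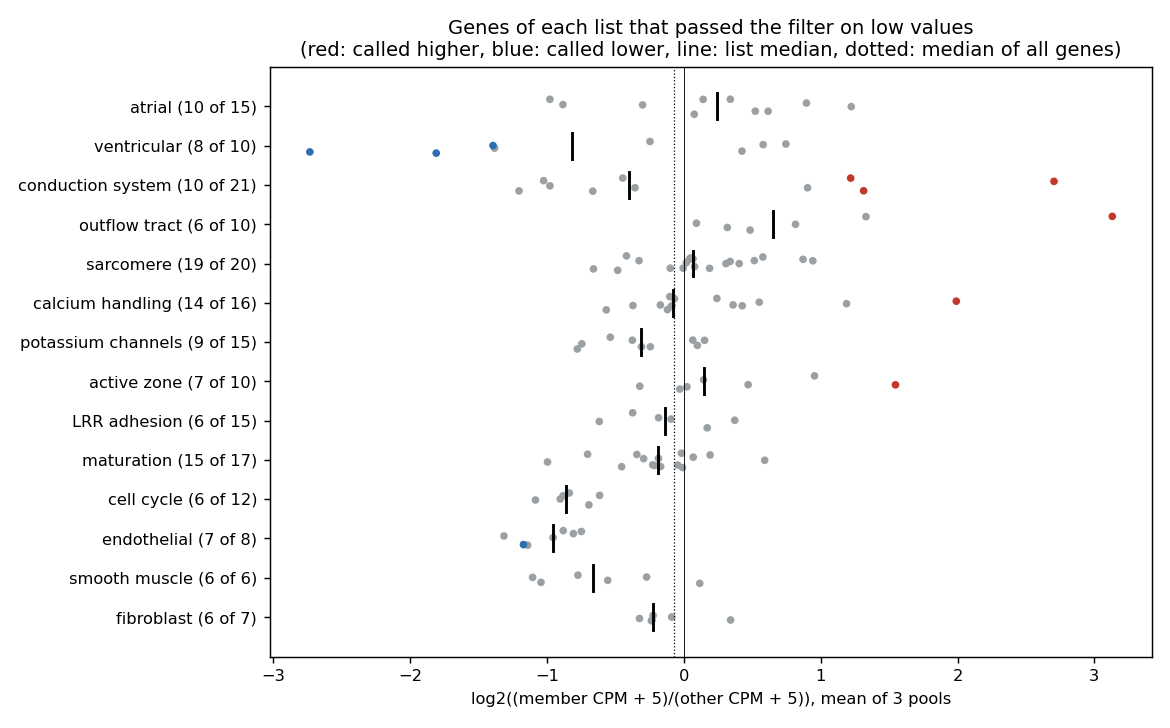
Mean log2 difference over 3 pools of each gene that passed the filter, by list, with the number passed of the number listed beside each name. Red points were called higher and blue lower, thick lines are list medians and the dotted line is the median of all counted genes (-0.07); the ventricular list has 3 genes called lower, the conduction list 3 called higher, and the sarcomere list none.

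Genes beside the markers on the chromosome were read as well. In the RefSeq order of GRCm38.p6, Erc2, Lrtm1 and Cacna1d lie on chromosome 14 with 32 genes from Erc2 to Cacna1d, both included, of which 21 are among the features measured and 9 are protein coding. Wnt5a, which encodes a secreted Wnt ligand and lies next to Erc2 among the protein-coding genes, was at 73.1, 84.1 and 95.9 CPM in the members against 17.3, 17.8 and 19.1 CPM and was called higher (1.95 ± 0.13). Cacna2d3, a calcium channel subunit gene that overlaps Lrtm1, was at 25.9, 30.8 and 71.0 CPM against 13.9, 17.1 and 11.98 CPM, with 1.19 ± 0.84 and no call. Selenok and Actr8 lie closer to Cacna1d and both had 0.20, without a call. Chdh, which overlaps Cacna1d, was under the filter and higher in each pool, at 20.3, 22.6 and 9.59 CPM against 4.39, 4.78 and 2.37 CPM. Dcp1a, which also overlaps Cacna1d, had -0.14 ± 0.20, and Gca, which overlaps Kcnh7, had 0.39 ± 0.26. The lncRNAs Gm52106 and 4831407H17Rik overlap Cacna1d and were called higher (1.63 ± 0.41 and 1.57 ± 0.25), and Gm52097, which overlaps Erc2, was at 24.0 CPM against 1.56 CPM, under the filter. Reads of overlapping genes may not be separable here, so all of these overlapping genes, the markers Erc2, Lrtm1, Kcnh7 and Cacna1d included, are uncertain to that extent. Kcnh7 and Lrrc4c lie on chromosome 2, and none of the genes within 500 kb of either was called. Most of those genes had few or no member UMIs, and Gm13799, the only measured gene beside Lrrc4c, had none. Over all counted genes 0.616% were called higher and 0.694% lower, so nothing is read from the lack of calls there.

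The 250 bases before the start of the marker genes, the 15 highest and 10 lowest genes, Wnt5a and Bmp4 were searched on both strands for the motif of GATA factors, AGATAA, that of T-box factors, GGTGTGA, that of NKX2-5, TCAAGTG, and the MEF2 consensus. RefSeq promoters of GRCm38.p6 were found for 22 of 31 genes looked up, 27 windows in all. GATA motifs were in 9.99% of all 32851 promoter windows of that table, T-box motifs in 3.33%, NKX2-5 motifs in 2.68% and MEF2 motifs in 2.92%. The windows of Erc2, Kcnh7, Lrrc4c, Lrtm1 and Cacna1d held none of these letters. Other forms of the GATA motif were not searched, so a GATA site in these windows is not excluded. Matches were found before Ptpro (GATA and NKX2-5) and Prps2 (GATA), both higher in members, and before Gja1 (GATA), the lowest gene. Shown 5′ to 3′ on the strand of the gene are the windows of 2 markers on chromosome 14 (Erc2 at chr14:27622157-27622406, plus strand, and Lrtm1 at chr14:29017958-29018207, plus strand), of Isl1 (chr13:116309689-116309938, minus strand), a transcription factor called higher, and of Ptpro (chr6:137252049-137252298, plus strand) and Gja1 (chr10:56377050-56377299, plus strand), with motif matches in capitals.
Erc2: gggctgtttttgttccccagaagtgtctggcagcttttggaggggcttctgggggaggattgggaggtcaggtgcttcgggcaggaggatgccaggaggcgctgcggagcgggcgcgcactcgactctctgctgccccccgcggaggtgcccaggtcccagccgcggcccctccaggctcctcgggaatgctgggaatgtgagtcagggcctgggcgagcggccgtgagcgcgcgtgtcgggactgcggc
Lrtm1: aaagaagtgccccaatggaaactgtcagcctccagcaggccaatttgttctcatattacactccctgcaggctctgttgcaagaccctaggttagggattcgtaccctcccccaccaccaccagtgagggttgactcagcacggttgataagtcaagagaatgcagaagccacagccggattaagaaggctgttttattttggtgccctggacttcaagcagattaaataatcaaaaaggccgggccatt
Isl1: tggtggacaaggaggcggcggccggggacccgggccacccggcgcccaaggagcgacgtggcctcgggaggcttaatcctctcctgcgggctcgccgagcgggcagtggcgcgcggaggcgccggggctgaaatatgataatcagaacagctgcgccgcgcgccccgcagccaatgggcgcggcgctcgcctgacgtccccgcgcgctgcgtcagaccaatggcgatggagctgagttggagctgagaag
Ptpro: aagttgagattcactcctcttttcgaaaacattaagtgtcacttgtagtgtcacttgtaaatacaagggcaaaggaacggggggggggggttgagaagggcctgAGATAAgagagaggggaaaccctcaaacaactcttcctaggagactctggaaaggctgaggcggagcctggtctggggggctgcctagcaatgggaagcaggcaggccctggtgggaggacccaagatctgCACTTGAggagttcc
Gja1: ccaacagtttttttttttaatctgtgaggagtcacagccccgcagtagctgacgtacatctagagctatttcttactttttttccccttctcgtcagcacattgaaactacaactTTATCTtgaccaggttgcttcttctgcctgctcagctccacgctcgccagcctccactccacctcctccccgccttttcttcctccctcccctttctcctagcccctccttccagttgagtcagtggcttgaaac
The windows differ in base composition, with 69.6% G and C before Erc2 and 71.2% before Isl1, against 49.2% before Lrtm1. A match of these letters is a description of the sequence and was not tied to the levels above.

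Markers of other cell types were read as whole lists. The summed level of 8 endothelial genes was 187 to 249 CPM in the members, 382 to 566 CPM in the other gated nuclei and 2053 to 2618 CPM outside the gate, and 1 of 7 counted genes, Ptprb, was called lower. The 7 fibroblast genes summed to 761 to 1427 CPM in the members and 1241 to 1424 CPM in the others, and the 6 smooth muscle genes to 307 to 792 and 596 to 830 CPM, with none called. Abcc9, listed as a pericyte gene and also known as the sulfonylurea receptor of cardiac muscle, was lower (61.0, 61.5 and 123 CPM against 272, 292 and 275). The 5 pericyte genes summed to 109 to 198 CPM in the members, 359 to 391.6 CPM in the others and 343 to 419 CPM outside the gate. The 7 Schwann cell genes were at about the same sum in all classes, 26.8 to 36.9, 27.2 to 27.5 and 29.2 to 33.8 CPM. The 6 macrophage genes summed to 3.84 to 16.6, 31.4 to 55.7 and 117 to 150.5 CPM, and the 5 mesothelial genes to 3.84 to 28.7, 15.9 to 34.3 and 174 to 371 CPM, in the same order. For the 6 valve interstitial genes the sums were 203 to 354, 243 to 294 and 434 to 580 CPM, and for the 5 erythroid genes 190 to 291, 259 to 1313 and 2279 to 5532 CPM. Sox10 and Foxd3 of the Schwann cell list, Ptprc of the macrophage list, and Myod1, Myog, Pax7, Actn3 and Myh3 of the skeletal muscle list had no UMI in the members. Nuclei with high doublet scores numbered 25, 3 and 8 among the members of pools 1, 2 and 3, and without them and their like in the other gated nuclei 54 genes were higher (51 of the 55) and 73 lower (52 of the 62). The part of other cell types in the differences was not tested.

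Metabolic maturation genes and cell cycle genes held no call, which is at the background share. Of 17 maturation genes 15 passed, with a median of -0.18. Of 12 cell cycle genes 6 passed, all with differences below 0 (median -0.86), from 16 to 51 member UMIs each. A cycling nucleus, one with at least 2 UMIs over the 12 genes after thinning, made up 2.09% ± 1.82 of the members, 3.04% ± 0.967 of the other gated nuclei and 6.56% ± 1.22 of the nuclei outside the gate, and the members' range over pools (0 to 3.25%) contained part of that of the others (1.93% to 3.60%).

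Levels were also read in bins on either side of the threshold. In the 20 members with exactly 3 marker UMIs, Rspo3 was at 382 CPM, Gria1 at 740 CPM and Ryr2 at 5999 CPM, and Gja1 had no UMI. In the 179 members with 11 or more, these were at 466, 948, 3562 and 19.1 CPM. Snap25 and Sema3a were lower in the 20 members, at 8.13 CPM (1 UMI) and 56.9 CPM (7 UMIs), than in the 179, at 122 and 265 CPM, and near the levels of the other gated nuclei. Isl1 was at 56.9 CPM in the 20 and 81.9 CPM in the 179. The 30 gated nuclei that lay just outside the marker minimum, with 1 or 2 marker UMIs and more of these than of Fgf13 and Fhl2, had 533 CPM of Rspo3, 795 CPM of Gria1 and 38.8 CPM of Gja1, and no UMI of Isl1. The 65 nuclei with 11 or more marker UMIs but at least as many of Fgf13 and Fhl2 had 73.1 CPM of Rspo3, 150 CPM of Gria1 and 160 CPM of Gja1, with a median of 10275 UMIs per nucleus. The bins are sums over all pools, with no replicate spread.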

How the data were processed

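UMI counts of single nuclei were deposited by the authors as 1 matrix for each of 3 pools. Per the submitters' processing notes, Cell Ranger 7.0.1 and 7.1.0 and the build GRCm39 were used; whether counting used strand is not given in the sources used here. The chromatin part of the assay was not analysed here. Members and lists were chosen with earlier results of these data known, so no p-value is given. UMIs were summed per pool and class and scaled to CPM, and log2 differences had a pseudocount of 5 CPM. Calls needed at least 2-fold in each pool and 10 CPM in every pool. Named genes were the rule's 11, Cacna1d, list members, the 15 highest and 10 lowest calls and neighbours within 500 kb or between Erc2 and Cacna1d. Shares were read after thinning to 1000 UMIs. Doublets were kept. Scrublet (scanpy 1.11.5) set its threshold automatically at 0, 2 and 2 nuclei, so the highest scores were marked at 0.8% per 1000 deposited nuclei for an alternative. TMM factors came from edgeR 4.0.16. The arithmetic of the comparison was checked on simulated pool sums with Poisson noise. These had no variation between nuclei and no choice of members, so they do not show how certain the calls are. The pools share 1 label set, and nothing says how pups were assigned to them. Some genes of the lists and calls are not reported here.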

Additional observations from a re-analysis of the deposited data

How the results depend on the processing

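Of 1125 values (75 named genes under 15 alternatives), 66 changed sign. Of these, 20 were of genes that differed by at least 2-fold in each pool as reported, rule genes included, and are given here, and 46 were of other genes. With a gate of 5%, which left 5 members, the member share was 1.37%, 2878 genes were lower, and the log2 difference was -0.62 for Lrrc4c, -1.09 for Mfsd6, -0.40 for Snap25, -0.16 for D030025E07Rik, -1.24 for Oprd1, -1.20 for Ptpro, -1.09 for Ntm, -0.52 for Isl1, -2.19 for Cacna1d, -1.79 for Nexmif, -0.10 for Wnt5a, -0.43 for Cacna1h, -2.95 for Rims1, 0.40 for Ptprb, -1.08 for Gm52106 and -0.96 for 4831407H17Rik. That setting moved the median of all counted genes by -1.91. Against the 204 nuclei left when Fgf13 and Fhl2 nuclei were taken out, 20 genes were higher and 276 lower, the median moved by 0.11, and the log2 difference was 1.19 for Fgf13, 0.55 for Ripor2, 0.57 for Kcnip2 and -0.027 for Cacna1h. Leaving out 1 pool gave 62 to 69 genes higher and 81 to 150 lower (150 without replicate 1 and 96 without replicate 2), and a member share of 9.28% to 11.1%. Genes called higher made up 47.0% of calls as reported, 1.71% with the gate of 5%, 29.2% without replicate 1 and 6.76% against the 204 nuclei. The cause of these shifts was not tested. Each difference was taken within a pool, so members and other nuclei were already paired by pool. Depth limits the low genes: Plekhh1, Dcc and A630039O03Rik had 4, 3 and 4 member UMIs.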
